A study of Homo sapiens with 6 samples.

Results

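CDH1, CCL16, RAB31, MISP, PNCK, CPNE1 and DNAJC7 are 7 protein-coding genes that each had at least 6 RPB1 regions in SHP-1 WT HepG2 cells and no RPB1 region in SHP-1 KO cells under their own name. They were picked by these counts from the 2314 genes with 6 or more WT RPB1 regions, of which 2103 are coding, so their RPB1 counts are a description and were not tested. Of the 2314 genes, 13 had no KO region under their name (0.562%), and of the 2103 coding genes 11 had none (0.523%). The other 4 coding genes that met the rule, PCK1, PLCH2, SYT8 and TNNI2, are not described further. The same rule turned around, with 6 or more KO regions and none in WT, was met by 2 of 1792 coding genes (0.112%) and by 2 of 1946 genes of all kinds (0.103%). With no minimum, 9.09% of the 14164 genes with any WT RPB1 region had none in KO. HepG2 is a cell line from a human liver tumor. RPB1 and RPB1 phosphorylated on Ser2 were each profiled by ChIP-seq in 1 library of untreated cells labelled SHP-1-WT (CRISPR control) and 1 library of untreated cells labelled SHP-1-KO (CRISPR knockout). Per the study, clonal HepG2 lines were made with guides against exons of the phosphatase domain of PTPN6, the gene of SHP-1, and a nontargeting guide was used as well. Which WT and KO lines were profiled is not given in the sources used here. Every difference below is therefore one between single libraries of 2 lines, with no replicate check and no p-value, and SHP-1 loss, the line and the library cannot be told apart. In a bulk library, fewer occupied cells and lower occupancy per cell cannot be told apart either.

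RPB1 is the largest subunit of RNA pol II and carries a long C-terminal tail of repeats. RNA pol II often accumulates near the start of a gene, and phosphorylation of Ser2 in the tail rises during elongation, so that phospho-Ser2 RPB1 is usually found over gene bodies and beyond their ends. SHP-1 is a tyrosine phosphatase, and the study asked where RPB1 occupancy differed in its absence. The members have no common pathway. CDH1 encodes E-cadherin, the adhesion receptor of epithelial adherens junctions, and CCL16 encodes a chemokine made mainly by liver. RAB31 is a small GTPase of endosomal traffic, and MISP is an actin-binding protein of the cell cortex that positions the mitotic spindle. PNCK is a kinase of the calmodulin-dependent family, CPNE1 a copine that binds phospholipids when calcium is present, and DNAJC7 a J-domain cochaperone of HSP70 and HSP90.

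The promoter sequences that the regions turned on are shown first. RefSeq promoter windows (GRCh38.p14, 250 bases before to 50 after an annotated start) were found for 5 of the 7 members. None was found for CDH1 and CCL16, so no motif was searched for at these genes. Of the windows found, 4 are printed from 5′ to 3′ on the strand of the gene. Capitals mark CAGGTG on either strand, the E-box that Snail and ZEB repressors can bind. The windows of MISP and RAB31 overlapped a WT RPB1 region and no KO region, and the printed windows of PNCK and CPNE1 overlapped a region in both cells.
MISP, chr19:750862-751161, plus strand: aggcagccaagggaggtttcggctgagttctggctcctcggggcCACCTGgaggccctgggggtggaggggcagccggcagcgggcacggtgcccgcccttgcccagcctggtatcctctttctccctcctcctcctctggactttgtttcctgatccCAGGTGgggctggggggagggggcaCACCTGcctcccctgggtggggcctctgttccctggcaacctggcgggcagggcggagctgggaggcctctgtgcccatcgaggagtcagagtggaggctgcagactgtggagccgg
RAB31, chr18:9708051-9708350, plus strand: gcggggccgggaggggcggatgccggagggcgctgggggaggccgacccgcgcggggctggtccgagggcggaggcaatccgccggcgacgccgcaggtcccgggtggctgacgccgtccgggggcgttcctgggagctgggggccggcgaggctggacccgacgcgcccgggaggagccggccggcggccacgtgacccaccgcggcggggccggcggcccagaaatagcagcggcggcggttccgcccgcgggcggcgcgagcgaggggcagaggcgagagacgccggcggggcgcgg
PNCK, chrX:153687722-153688021, minus strand: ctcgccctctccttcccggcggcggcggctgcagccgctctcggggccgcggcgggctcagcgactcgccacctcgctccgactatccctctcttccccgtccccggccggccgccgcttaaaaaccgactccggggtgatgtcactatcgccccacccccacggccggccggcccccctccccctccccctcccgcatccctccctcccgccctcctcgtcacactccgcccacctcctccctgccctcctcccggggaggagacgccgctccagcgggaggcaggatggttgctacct
CPNE1, chr20:35664851-35665150, minus strand: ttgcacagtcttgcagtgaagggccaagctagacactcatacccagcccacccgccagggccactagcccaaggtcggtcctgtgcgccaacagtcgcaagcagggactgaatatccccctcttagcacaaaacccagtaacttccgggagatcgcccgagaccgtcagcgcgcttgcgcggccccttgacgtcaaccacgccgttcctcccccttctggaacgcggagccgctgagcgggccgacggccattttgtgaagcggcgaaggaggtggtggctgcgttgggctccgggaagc
The MISP window held CAGGTG 3 times, at -206, -92 and -67 bases from the start, and CAGGTG was found in 20.6% of all 35116 promoter windows searched. It was not in the printed windows of RAB31, PNCK and CPNE1. PNCK has 4 further RefSeq windows, which overlapped no RPB1 region in either cell, and 3 of them held CAGGTG. TTCNNNGAA, the site of STAT factors, was in 7.66% of all windows and TATAAA in 11.5%, and no window of a member held either. The RAB31 window had a GC content of 82.7% and 52 CG dinucleotides, and the PNCK window had 74.3% and 33. MISP had only 10 CG dinucleotides, fewer than the median of 14 over all windows, at a GC content of 69.3% against a median of 58.7%. These matches describe letters in the windows and are not evidence of binding.

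The KO list was about as rich as the WT list. It held 41605 RPB1 regions against 46045, with a median fold enrichment over input at the summit of 5.62 in KO and 5.51 in WT, and 61.9% of all WT regions were overlapped by a KO region. From the fold enrichment and the p-value of a region, the number of fragments stacked at its summit, here called the pileup, was recovered for every region of both RPB1 lists. The smallest listed pileup was 5 in each, and the genome-wide background under the regions was 0.897 times as high in KO as in WT, which is the only measure of relative depth these lists give. The phospho-Ser2 lists held 102674 regions in WT and 81012 in KO. PTPN6 itself had 3 RPB1 regions in WT and 1 in KO, which says nothing of the SHP-1 protein. Of 10 hepatic marker genes, 9 had an RPB1 region by name in WT and 8 in KO, with FOXA2 in neither list and APOA1 at 1 region in WT and 0 in KO. By position APOA1 had 1 in each cell, and FOXA2 had 2 in WT and 4 in KO. Markers of other cells mostly lacked regions in both lists: PTPRC, CD3E, COL1A1, COL1A2, DCN, CDH5 and VWF had no region, CD68 had 2 in WT and 1 in KO, PDGFRA 1 and 1, and PECAM1 17 and 11. Their part in the results was not tested.

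The 7 genes had 46 WT RPB1 regions, most of them weak. Their fold enrichments ran from 3.02 to 32.0 with a median of 4.88, and 32 of the 46 were below the median of the WT list. The median length was 314 bp. By the annotation in the authors' lists, 15 were at promoters, 14 in introns, 5 in 3′ UTRs, 5 just downstream of a gene, 3 in exons, 3 distal and 1 in a 5′ UTR. Of the 46, 1 was overlapped by a KO RPB1 region of any name (2.17%), at the PNCK promoter. Counted by position instead, from 3 kb upstream of the gene start to its end, CDH1, CCL16, RAB31 and MISP still had no KO RPB1 region of any name, while PNCK had 1, CPNE1 1 and DNAJC7 3 that carried the names of overlapping genes. Among the 2103 coding genes, 8 had no KO RPB1 region of any name by position (0.38%).

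**Figure D1:**
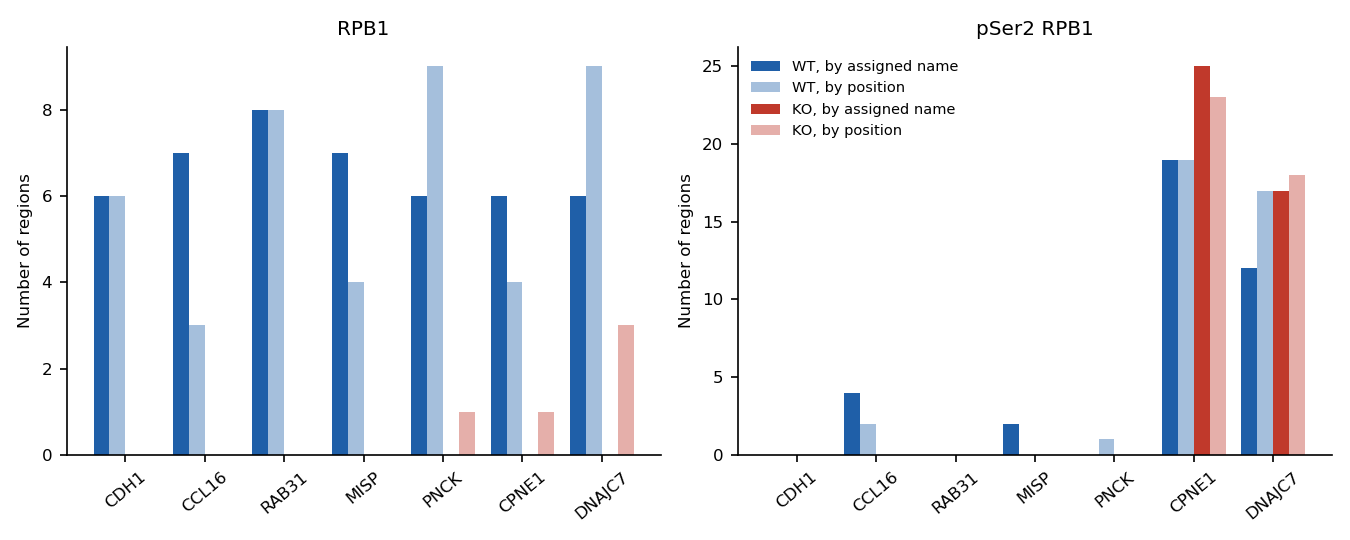
Number of listed regions (y axis) for each of the 7 genes (x axis), for RPB1 on the left and phospho-Ser2 RPB1 on the right, in WT (blue) and SHP-1 KO (red), by the gene name in the authors' lists (dark) and by position from 3 kb upstream to the gene end under any name (pale). No dark red RPB1 bar is seen, by the choice of the genes, whereas pale red RPB1 bars of 1, 1 and 3 stand at PNCK, CPNE1 and DNAJC7, and phospho-Ser2 regions in KO stand only at CPNE1 and DNAJC7.

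CDH1 showed the clearest start-site region without a KO counterpart. The gene spans 98.2 kb on the plus strand of chromosome 16 (hg38, 68737292 to 68835537), and all 6 WT regions lay between -181 and 7817 bp from its start. The promoter region (68737111 to 68737648) had a fold enrichment of 15.9, a −log10 q of 43.0 and a pileup of 45 (95% Poisson interval 32.8 to 60.2), with its summit 8 bp after the annotated start. The other 5 regions were weaker. A further promoter region had its summit at 872 bp, with 5.24 and a −log10 q of 6.61. The 4 intron regions had summits at 3307, 3810, 4156 and 7648 bp, fold enrichments of 3.26, 4.53, 3.80 and 3.90, and −log10 q of 3.56, 6.89, 3.69 and 4.58. CDH1 thus had 1 strong region at the start and a short tail of weak ones. No region of either phospho-Ser2 list, in WT or in KO, touched CDH1. Of the 9927 WT regions with a fold enrichment at or above that of the CDH1 promoter, 23 had no KO overlap (0.232%). CDH1 is among the 23 by the choice of the genes. Among the 1423 WT regions with a pileup of 40 to 50, 28 had none (1.97%). The nearest KO RPB1 region to any of the 6 CDH1 regions was 98.3 kb away, beyond the other end of the gene, and was assigned to TANGO6.

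The genes next to CDH1 did not share this pattern. CDH3, which encodes P-cadherin and lies 9.82 kb upstream, had no region in any of the 4 lists. TANGO6, 7.99 kb downstream, had 1 RPB1 region over the gene in WT with a fold enrichment of 29.6 and 3 in KO reaching 14.3. Within 500 kb on each side of CDH1 there were 45 RPB1 regions in WT and 43 in KO. Of the other 9 adherens junction genes, 8 had RPB1 regions in both cells and CDH3 in neither, with 31 regions in WT and 18 in KO in all. CDH2, which encodes N-cadherin, had 3 regions in WT and 2 in KO, with a highest fold enrichment of 17.4 and 9.60. CTNNB1, the gene of β-catenin, which binds the tail of E-cadherin, had 3 and 1 regions, reaching 56.2 in WT and 36.6 in KO. Of 11 other epithelial genes, 10 had regions in both cells. EPCAM had 1 in each, with a fold enrichment of 32.1 in WT and 23.3 in KO, and GRHL2 had none. Of 6 repressors of CDH1, SNAI1 and TCF3 had regions in both cells, ZEB1 had by name none in WT and 1 in KO with a fold enrichment of 4.52 but by position 2 in each, and SNAI2, ZEB2 and TWIST1 had none. SNAI1 reached 60.0 in WT and 44.4 in KO.

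CCL16 had 7 WT RPB1 regions of similar height, spread over the gene and past its end. The gene spans 5.005 kb on the minus strand of chromosome 17 (35976493 to 35981497). The 3 regions within the gene had summits at 81, 2298 and 3442 bp after the start, with fold enrichments of 4.73, 4.88 and 4.58 and −log10 q of 5.76, 6.63 and 4.41. The 4 regions past the end had summits at 5852, 6452, 7526 and 10567 bp, fold enrichments of 4.54, 6.13, 3.65 and 3.53, and −log10 q of 4.88, 7.68, 3.89 and 2.44. The highest of the 7 was thus past the end of the gene and not at its start. CCL16 was also 1 of the 4 members with phospho-Ser2 regions in WT. Its 4 regions had fold enrichments of 3.70, 4.51, 4.50 and 3.59 with summits at -1668, -1184, 7856 and 9155 bp from the start, none of them inside the gene. Those at -1668 and -1184 bp were annotated as just downstream of a gene. They lay between CCL16 and the end of CCL14, a gene on the same strand. The region past the end with the pileup of 29 (95% Poisson interval 19.4 to 41.6) overlapped 1 of the RPB1 regions. The KO phospho-Ser2 list held no region at CCL16.

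Phospho-Ser2 regions were also fewer in KO at the chemokine genes beside CCL16. They were fewer in KO over the whole lists too, with 81012 against 102674 in WT. CCL14, 1.79 kb away, had 5 in WT and 1 in KO and no RPB1 region in either. CCL15 had 6 phospho-Ser2 regions in WT and 1 in KO, but its RPB1 regions numbered 1 in WT, with a fold enrichment of 3.92, and 2 in KO, reaching 9.71. Both genes are chemokines of the same cluster. CCL20, a chemokine of another chromosome, had 2 RPB1 regions in each cell, reaching 20.3 in WT and 21.4 in KO. CCL2, CCL5, CCL18 and CCL23 had none in either cell. Within 500 kb of CCL16 there were 33 RPB1 regions in WT and 21 in KO, and 69 and 54 phospho-Ser2 regions. The RPB1 counts turned at other distances, with 2 in WT and 4 in KO within 100 kb and 70 and 68 within 1000 kb.

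RAB31 had 8 WT RPB1 regions, the most of the 7 genes by assigned name, scattered along 154 kb on the plus strand of chromosome 18 (9708275 to 9862551). The region at the start was weak, with its summit at 92 bp, a fold enrichment of 4.51, a −log10 q of 3.86 and a pileup of 8 (95% Poisson interval 3.45 to 15.8). The highest was in an intron, with its summit at 98726 bp, a fold enrichment of 9.06, a −log10 q of 16.3 and a pileup of 22. It stood in a group of 4 that began at 95307 bp, whose other members had fold enrichments of 4.45, 4.88 and 4.33. The remaining 3 had summits at 26206, 27070 and 147502 bp and fold enrichments of 5.46, 4.46 and 4.48. They were annotated to an intron, an exon and a promoter. The highest RPB1 region at RAB31 was thus in an intron and not at the start. No phospho-Ser2 region of either cell touched RAB31. The nearest KO RPB1 region was 57.7 kb from the last of the 8 and was assigned to VAPA. The surroundings held 5 RPB1 regions within 500 kb in each cell, all 5 of WT overlapped in KO, and 52 phospho-Ser2 regions in WT and 45 in KO. PPP4R1 upstream had 1 region over the gene in each, of 23.5 in WT and 21.2 in KO, and 0 phospho-Ser2 regions in WT and 9 in KO. Of the other 8 genes of the RAB5 subfamily and its effectors, 6 had RPB1 regions in both cells and RAB5A and RAB22A in neither by name. RAB5B, an early endosome GTPase, had 2 in WT and 4 in KO, and EEA1, a tether of early endosomes, had 2 and 6.

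MISP had 7 WT RPB1 regions, of which 3 lay at a neighbouring gene. MISP spans 13.2 kb on the plus strand of chromosome 19 (751112 to 764318). The start region (751036 to 751994) was the highest of the 7, with its summit at 50 bp, a fold enrichment of 7.78, a −log10 q of 11.0 and a pileup of 15 (95% Poisson interval 8.40 to 24.7). It covered 126 bp of the printed promoter window. An intron region with its summit at 1555 bp reached 7.01, at a −log10 q of 9.07. The start and the intron region near it were thus the higher ones. The 3 regions with summits at -4695, -3452 and -2946 bp were annotated to an exon and a 3′ UTR and lay in PALM, the gene before MISP, with fold enrichments of 4.01, 4.91 and 5.51. A distal region at -2584 bp had 5.01 and a region past the end, at 14448 bp, had 4.51. The last one was overlapped by 1 of the 2 WT phospho-Ser2 regions of MISP, which had fold enrichments of 3.56 and 4.32 and lay past the end of the gene. The KO phospho-Ser2 list held none. PALM, which encodes a membrane-bound protein of cell shape, had 8 RPB1 regions by its own name in WT and 4 in KO. By position it had 10 and 2, a count that includes the MISP-named regions. On the other side PTBP1, a splicing regulator, had 15 in WT and 13 in KO, reaching 87.4 and 83.9. Within 500 kb there were 268 RPB1 regions in WT and 202 in KO. Of 7 proteins linked with MISP at the spindle or cortex, 6 had RPB1 regions in both cells. PLK1, the kinase that phosphorylates MISP, had 7 in each, reaching 16.8 in WT and 18.2 in KO. EZR, which encodes ezrin, had none by name in either.

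**Figure D2:**
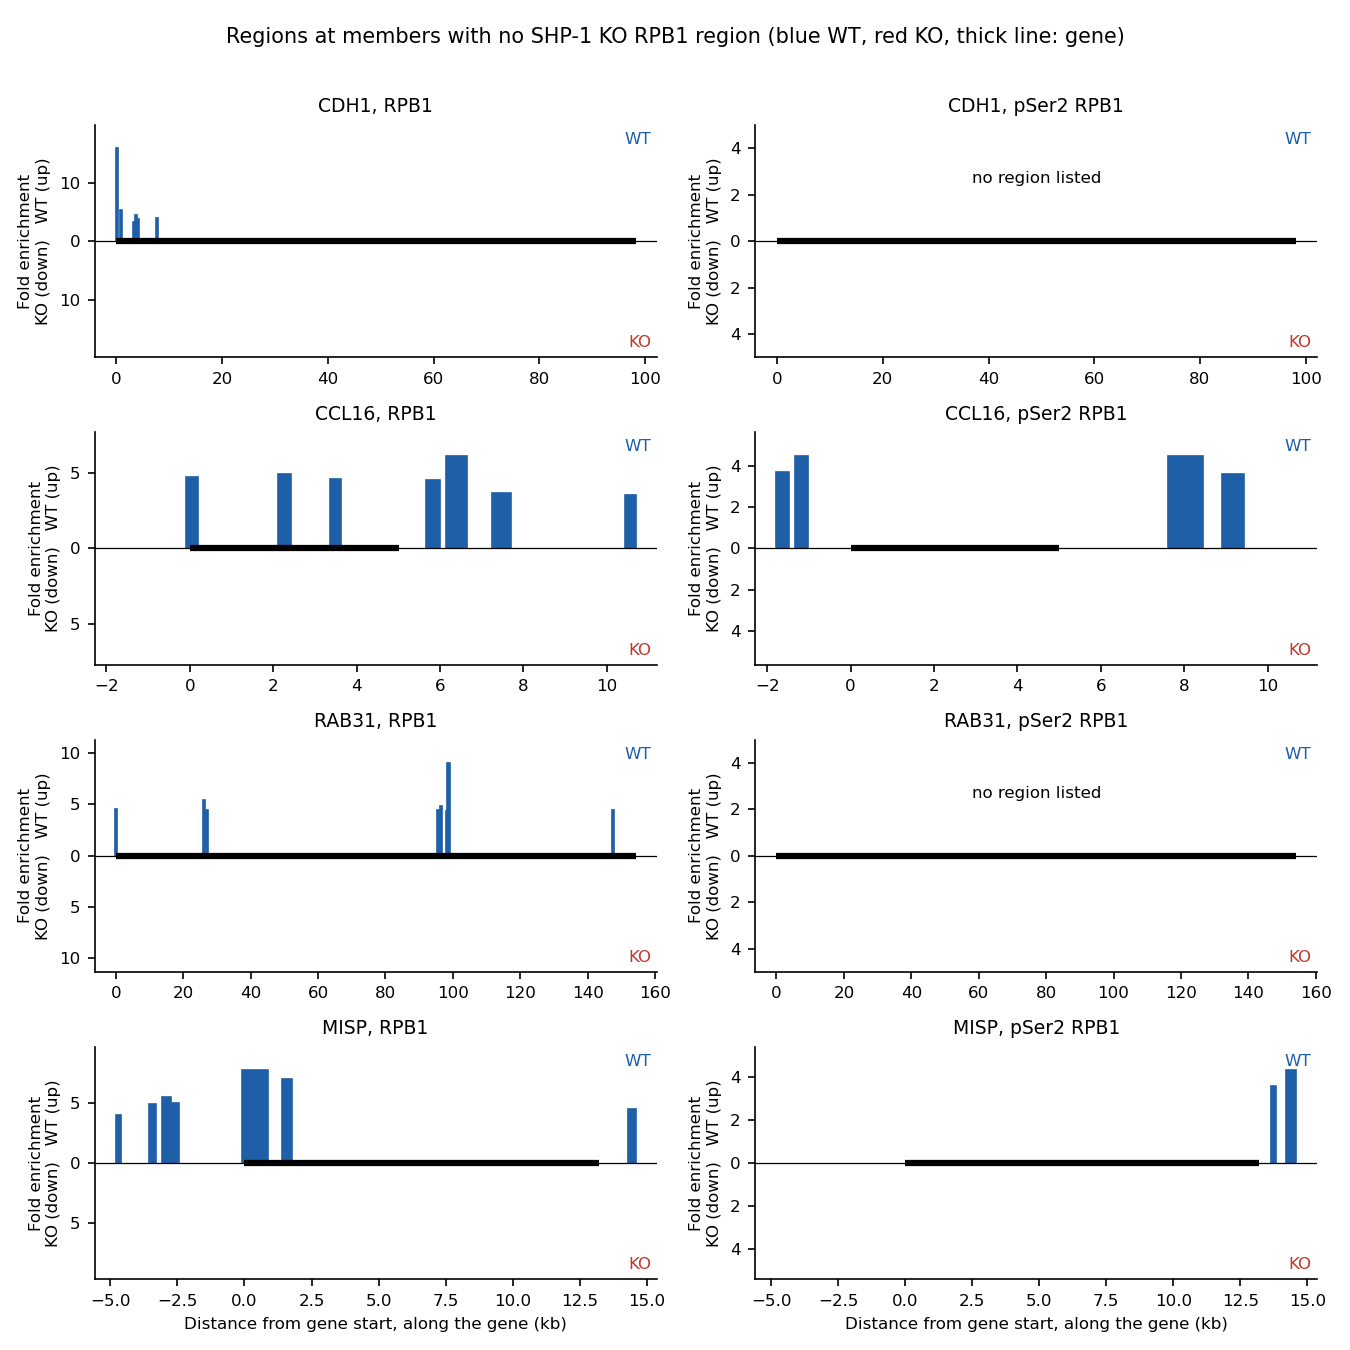
Regions at CDH1, CCL16, RAB31 and MISP, with the distance from the gene start in kb on the x axis and the fold enrichment over input on the y axis, WT upward in blue and SHP-1 KO downward in red, for RPB1 (left) and phospho-Ser2 RPB1 (right). Each bar spans 1 region and the thick line is the gene; no bar points down in any panel, the highest WT bar of 15.9 stands at the CDH1 start, and CDH1 and RAB31 have no phospho-Ser2 region.

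PNCK differed from these 4, because its strongest region was present in both cells. The gene spans 19.3 kb on the minus strand of the X chromosome (153669733 to 153689010), and SLC6A8, the creatine transporter gene, overlaps it on the plus strand. The WT region from 153687314 to 153688369 was assigned to PNCK, with a fold enrichment of 32.0, a −log10 q of 86.5 and a pileup of 63 (95% Poisson interval 48.4 to 80.6). Its summit lay 1064 bp after the start of the gene. In KO, the region at this site (153687758 to 153688205) was assigned to SLC6A8, and its fold enrichment was 20.6, its −log10 q 45.5 and its pileup 38 (95% Poisson interval 26.9 to 52.2). The summits lay 1 bp apart, so this was 1 site listed under a different gene in each cell. The WT region covered all 300 bases of the printed window and the KO region 264 of them. The pileup in KO was 0.673 times that in WT after division by the background ratio, with a 95% interval of 0.437 to 1.02 from the exact binomial, which covers counting error only.

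The other 5 WT regions of PNCK had no KO overlap. They had summits at 11, 2646, 3554, 3986 and 12043 bp, fold enrichments of 8.01, 6.51, 7.51, 8.51 and 5.01 and −log10 q of 11.4, 7.95, 10.2, 12.6 and 4.82. All but the last exceeded the highest named regions of CCL16, CPNE1 and DNAJC7, and 5 of the 6 PNCK regions had a −log10 q of 5 or more. SLC6A8 also had fewer regions in KO, with 11 named RPB1 regions in WT and 3 in KO, and 6 and 5 phospho-Ser2 regions. No phospho-Ser2 region of either cell carried the name PNCK, and the only one by position was a WT region of SLC6A8 at -2716 bp with a fold enrichment of 3.56. The flanking genes did not have fewer regions, with 3 RPB1 regions over DUSP9 in WT and 5 in KO, reaching 56.1 and 25.9, and 3 over BCAP31 in each. The wider surroundings did, with 44 RPB1 regions in WT and 22 in KO within 100 kb of PNCK, and 73 and 53 within 500 kb. Of 11 other genes of calmodulin and its kinases, 7 had RPB1 regions in both cells, CAMK4 and CALM2 by name in KO only, and CAMK1D and CAMK1G in neither. By position CALM2 had 1 in WT and 4 in KO, and CAMK4 0 and 2. CAMK1, a kinase of the same family as PNCK, had 12 in WT and 10 in KO, reaching 31.8 and 22.5.

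CPNE1 had its start region and its phospho-Ser2 regions in both cells. The gene spans 38.9 kb on the minus strand of chromosome 20 (35626031 to 35664956) and is overlapped on the same strand by RBM12, an RNA-binding protein gene. The region over the CPNE1 start was assigned to RBM12 in both lists. In WT (35663180 to 35665342) its fold enrichment was 58.8 and its pileup 255 (95% Poisson interval 225 to 288), and in KO (35663499 to 35665375) they were 40.2 and 159 (135 to 186). The KO to WT ratio of the pileups, again after division by the background ratio, was 0.695 (95% interval 0.567 to 0.851). The 6 WT regions that bore the name CPNE1 were small beside it, and none was overlapped by a KO RPB1 region. Their summits lay at -824, 1908, 10358, 39241, 39940 and 40493 bp and their fold enrichments were 6.03, 3.02, 3.93, 5.04, 5.09 and 5.71, so 3 of them were just past the gene end. CPNE1 had 19 phospho-Ser2 regions in WT, with fold enrichments of 2.08 to 6.98 (median 4.81), and 25 in KO, with 2.23 to 6.43 (median 3.56). By position, under any name, 19 regions in WT covered 30.0 kb, or 71.6% of the gene with its upstream 3 kb, and 23 in KO covered 26.4 kb, or 62.9%. More regions in KO thus went with less covered length. No pileup could be recovered from the KO phospho-Ser2 list. Whether its fold enrichments are on the same scale as those of WT is therefore not known, at this or any other gene. KO phospho-Ser2 regions lay over 4 of the 6 WT RPB1 regions. Of the other 8 copines, CPNE2, CPNE7 and CPNE8 had RPB1 regions in both cells, CPNE5 and CPNE9 had 1 in WT and none in KO, and CPNE3, CPNE4 and CPNE6 had none by name.

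DNAJC7 had a similar arrangement of RPB1 regions, and it also had phospho-Ser2 regions in both cells. The gene spans 45.0 kb on the minus strand of chromosome 17 (41976421 to 42021376), with NKIRAS2, the gene of an inhibitor of NF-κB signalling, and CNP, the gene of a myelin phosphodiesterase, overlapping it on the plus strand. Both strong regions near its start, with WT summits at 1199 and 3966 bp, were assigned to NKIRAS2. The first (WT 42019754 to 42021078) had a fold enrichment of 42.4 and a pileup of 117 in WT and of 19.8 and 78 in KO. Its KO to WT pileup ratio, after division by the background ratio, was 0.743 (95% interval 0.551 to 0.999). The second (WT 42016847 to 42018510) had 19.5 and 91 in WT and 19.3 and 70 in KO, a ratio of 0.858 (0.619 to 1.18) after the same division. Its span holds both RefSeq promoter windows of DNAJC7. At the gene end, regions assigned to CNP were present in both cells, with fold enrichments of 6.88 and 6.03 in WT and 7.75 in KO. The 6 WT regions that bore the name DNAJC7 were the low ones, with fold enrichments of 5.62, 3.83, 5.03 and 4.31 at -3196, -2720, -1924 and -1119 bp and 3.47 and 4.48 at 43291 and 43806 bp. The upstream ones were annotated to a 5′ UTR, an exon and 3′ UTRs, which are parts of a gene other than DNAJC7. By position, NKIRAS2 had 8 RPB1 regions in WT and 3 in KO. None of the 6 regions named DNAJC7 had a KO RPB1 overlap, although 3 lay within 1 kb of a KO region. DNAJC7 had 12 phospho-Ser2 regions in WT, of 3.01 to 6.47, and 17 in KO, of 2.45 to 5.69. By position, 18.8% of the gene with its upstream 3 kb was covered in WT and 17.4% in KO. Both promoter windows of DNAJC7, which overlap each other, overlapped no KO phospho-Ser2 region. In WT they overlapped the same 200 bp phospho-Ser2 region, which had a fold enrichment of 3.16. The CPNE1 window overlapped a phospho-Ser2 region in each cell. NKIRAS2 had by name 4 phospho-Ser2 regions in WT and 0 in KO. All 12 genes listed beside DNAJC7 had RPB1 regions in both cells. They are chaperones, cochaperones and the nuclear receptors NR1I2 and NR1I3. HSPA8, the constitutive HSP70, had 8 in WT and 6 in KO, reaching 53.6 and 56.1, and STIP1, a cochaperone that like DNAJC7 has tetratricopeptide repeats, had 4 and 10, reaching 69.4 and 47.1.

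**Figure D3:**
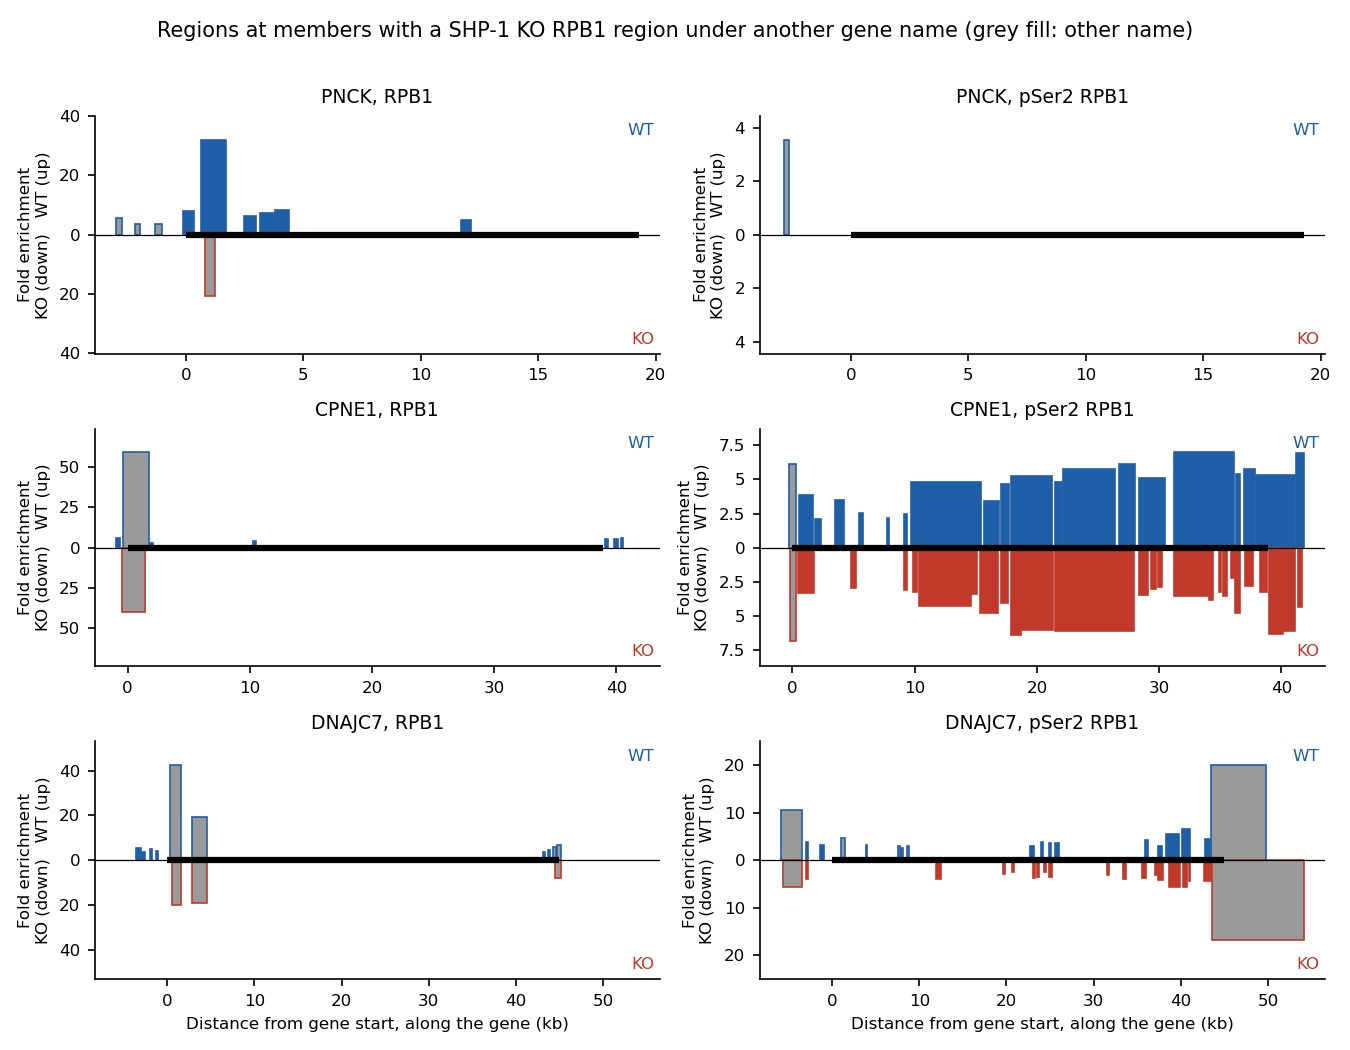
Regions at PNCK, CPNE1 and DNAJC7, drawn as distance from the gene start in kb (x axis) against fold enrichment over input (y axis), WT upward with blue outline and SHP-1 KO downward with red outline; regions assigned to another gene are filled grey, and each thick line is the gene. Every downward RPB1 bar is grey, among them 20.6 at PNCK and 40.2 at CPNE1, and coloured phospho-Ser2 bars fill CPNE1 in both directions.

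The pileup ratios at these sites lay near those of strong regions in general. All these ratios are after division by the background ratio. Strong pairs were the 11066 pairs of WT and KO regions with summits at most 200 bp apart and a WT pileup of at least 30. Their median KO to WT pileup ratio was 0.722 (quartiles 0.616 to 0.836), and 92.4% of the ratios were below 1. Over all 21093 pairs the median was 0.807, with 73.6% below 1, and over pairs with a WT pileup under 30 it was 0.981, with 52.8% below 1. The values of 0.673 at PNCK, 0.695 at CPNE1 and 0.743 at the first DNAJC7 site were within the quartiles of the strong pairs. The 0.858 of the second DNAJC7 site was just above them. By fold enrichment, the median KO to WT ratio of the strong pairs was 0.713. The first DNAJC7 site went from 42.4 in WT to 19.8 in KO, where the local background was 1.78 in WT and 2.98 in KO. PNCK went from 32.0 to 20.6, CPNE1 from 58.8 to 40.2 and the second DNAJC7 site from 19.5 to 19.3. The lower pileup in KO at these sites was thus shared with most pairs of high WT pileup, which were picked on the WT value.

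Across the whole list, the share of WT regions found again in KO rose with their pileup. Among all WT RPB1 regions, 31.6% of those with a pileup of 7 to 10 were overlapped in KO, 51.7% with 11 to 15 and 70.7% with 16 to 22. The members had 14, 20 and 10 regions in these 3 ranges, none of them overlapped, as the choice of genes without KO regions favours. Most member regions thus lay where loss from the list was common. The CDH1 promoter was the exception, since 98.0% of the 1423 regions with a pileup of 40 to 50 were overlapped and 28 were not. The PNCK promoter, at 63, was in the range of 51 to 75 where 99.6% were overlapped. The smallest pileup in the KO list, 5, applied where the background was at its floor, as it was in WT for 12 of the 46 regions.

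**Figure D4:**
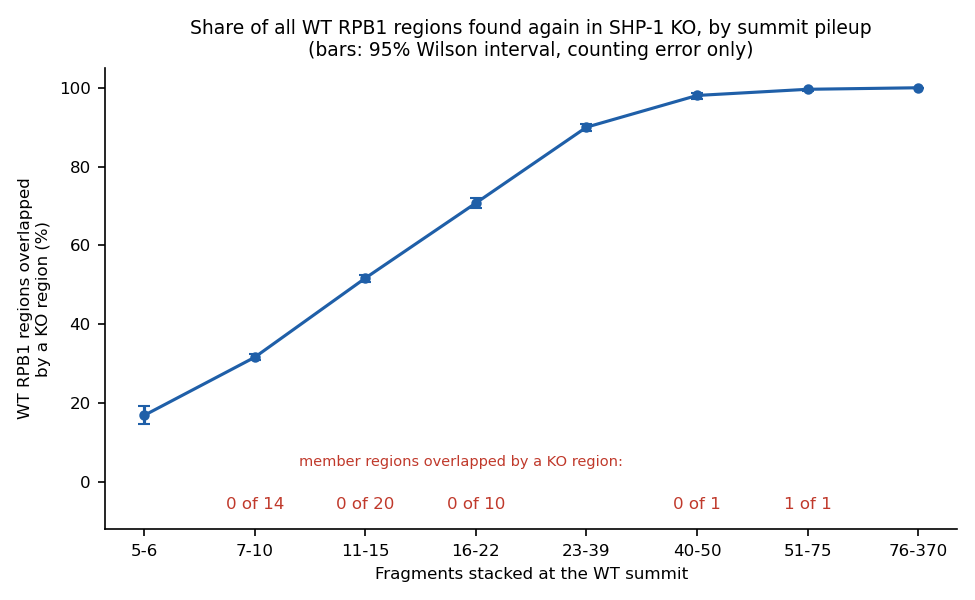
Share of all WT RPB1 regions overlapped by a SHP-1 KO region (y axis, percent, with 95% Wilson intervals that cover counting error only) by the number of fragments stacked at the WT summit (x axis). The share climbs from 31.6% at 7 to 10 fragments to 98.0% at 40 to 50, and the red text gives the regions of the 7 genes in each range, none overlapped but the 1 at the PNCK promoter.

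**Figure D5:**
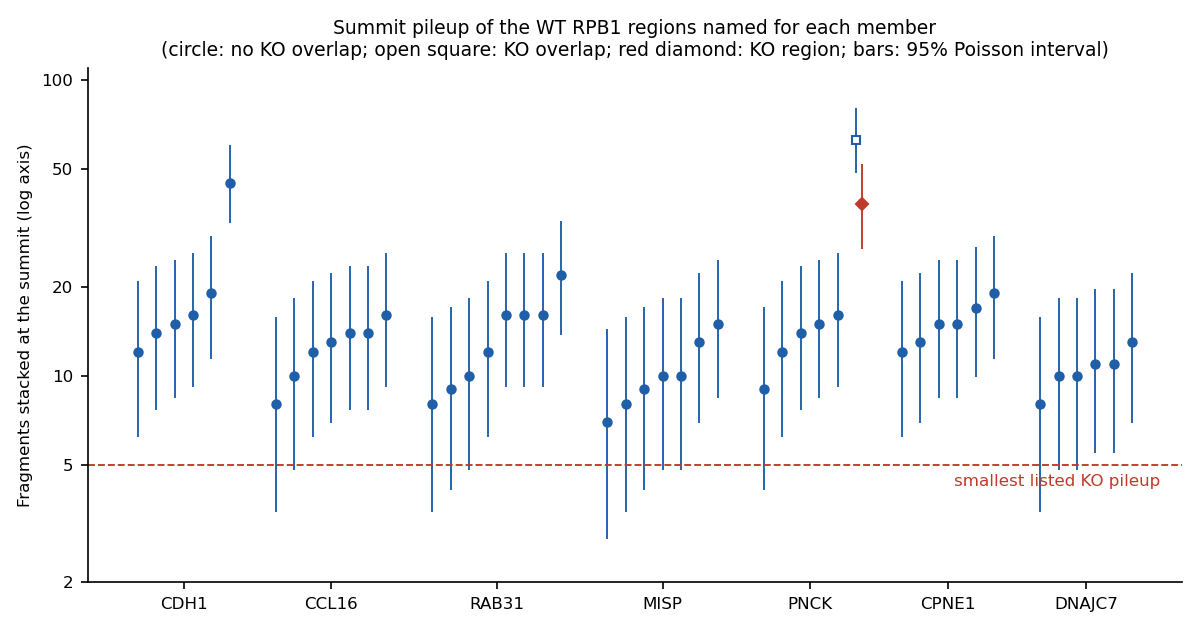
Fragments stacked at the summit (y axis, log scale) of each of the 46 WT RPB1 regions of the 7 genes (x axis), with 95% Poisson intervals; circles have no KO overlap, the open square has one and the red diamond is the KO region at the same site. Most circles sit between 7 and 22, the CDH1 promoter at 45, the PNCK promoter at 63 in WT and 38 in KO, and the dashed line marks 5, the smallest pileup anywhere in the KO list.

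Phospho-Ser2 RPB1 was not used to choose the genes and set them apart from each other. CDH1, RAB31 and PNCK had no phospho-Ser2 region by name in WT, which held for 28 of the 2314 genes with 6 or more WT RPB1 regions (1.21%), where the median gene had 9. CCL16 and MISP had 4 and 2 in WT and none in KO, and among all 3948 genes with 2 to 4 WT phospho-Ser2 regions 669 had none in KO (16.9%). CPNE1 and DNAJC7 had more in KO than in WT, as did 1040 of the 5467 genes with 6 or more in WT (19%), while 1.85% of those 5467 had none in KO. By assigned name, the genes therefore fell into 3 with no phospho-Ser2 regions, 2 with a few in WT alone and 2 with many in both cells. By position MISP had 0 in both cells, and PNCK had 1 in WT and 0 in KO. WT phospho-Ser2 regions lay over 1 of the RPB1 regions of CCL16, 1 of MISP, 5 of CPNE1 and 5 of DNAJC7, 12 of the 46 in all (26.1%), against 58.9% of all WT RPB1 regions. KO phospho-Ser2 regions lay over 4 of CPNE1 and 4 of DNAJC7, 8 of the 46 (17.4%), against 49.9%.

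The threshold of the rule separated genes with similar counts. Those just inside, CDH1, PNCK, CPNE1 and DNAJC7, had 6 WT regions and none in KO. FNDC10, PNPLA7, MOB3A, SLC22A16, TAF12 and SLC2A2 were the 6 coding genes with 5 WT regions and none in KO, with highest fold enrichments of 6.42 to 11.5. SLC2A2, the liver glucose transporter GLUT2, had 5 RPB1 regions reaching 7.80 in WT, and 16 phospho-Ser2 regions in WT against 1 in KO. Of the 2103 coding genes with 6 or more WT regions, a further 49 had 1 in KO, against 11 with none. In PECR, an enzyme of fatty acid metabolism in peroxisomes, 8 WT regions faced 1 in KO, and the highest fold enrichment was 66.5 in WT and 29.4 in KO. SHBG, which encodes the sex hormone-binding globulin secreted by liver, had 8 and 1, with 45.0 in WT and 5.99 in KO.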

How the data were processed

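HepG2 cells labelled WT or SHP-1 KO gave 1 ChIP-seq library each for RPB1 and for phospho-Ser2 RPB1, grouped by the sample labels. The authors used Trimmomatic for trimming, BWA for alignment to hg38 and MACS2 for narrow peaks over each line's own input, in versions not given in the sources used here. The deposited lists give each region's position, nearest gene and class, its fold enrichment over input, which is a ratio, its −log10 p-value and −log10 q-value, and a score that the authors deposited and that was not used. The authors' deposited csaw comparison of RPB1 (windows up and down, p-value and adjusted p-value) was not used, and the inputs were not analysed here.

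The members and the gene lists were chosen with earlier results of these data known. The genes named are the 7 members, genes just outside the rule, genes whose regions overlap a member, the nearest coding genes on each side, PTPN6 and the members of the lists. VAPA, as the owner of a nearest region, and the examples within each list were chosen after their values were seen. Some genes of the lists are not reported here. Regions were counted as listed, by the authors' gene name or by position with GENCODE release 44 (21 of 21 member transcripts were found), with an overlap of at least 1 bp.

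The MACS2 fold enrichment is (pileup + 1)/(background + 1), and the p-value is a Poisson tail. Both were solved for a whole pileup, accepted where the −log10 p-value was met within 0.001. This held for 100% of the regions of both RPB1 lists and of the WT phospho-Ser2 list and for 0.222% of the KO phospho-Ser2 list, for which no pileup is given. The step recovered 100% of 1996 simulated regions. Read depth is otherwise unknown, and intervals (95%) cover counting error only. No test was possible with 1 library per group. Alternatives were a −log10 q of 5 or more, counting by position, merged regions, promoter regions only, other overlaps, other minimum counts and other windows. Scripts ran under Python 3.11.15 with SciPy 1.17.1, NumPy 2.4.6 and pandas 2.3.3.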

Additional observations from a re-analysis of the deposited data

How the results depend on the processing

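Under a stricter −log10 q of 5 or more, the 7 genes kept 24 of 46 WT RPB1 regions and 24 of 37 WT phospho-Ser2 regions, and the share of genes without KO RPB1 regions fell to 0.352% from 0.562%. With promoter regions only, they had 15 WT RPB1 regions, and 9 phospho-Ser2 regions in WT and 14 in KO against 37 and 42, with 0 of 2 genes left with phospho-Ser2 regions in WT alone. By position, there were 5 KO RPB1 regions against 0 and 4 of 7 genes without any. With 50% of the WT region covered, 0 of the 46 were overlapped in KO against 1, and 7 lay within 1 kb of a KO region. A minimum of 4 or 8 WT regions gave shares of 1.11% and 0.219% for RPB1, and of 3.28% and 1.2% against 1.85% for phospho-Ser2. In all, 15 of these summary values moved and 23 did not, and none was reversed. Of the values for single genes, 33 moved and 106 did not. Within 100 kb in place of 500 kb, the KO to WT ratio of RPB1 regions went from 0.636 to 2 around CCL16 and from 0.956 to 3 around CDH1, whose 100 kb counts were 2 or fewer in WT. No paired analysis was possible because there was 1 library per antibody and cell line, and for the same reason no library could be left out. The pileup of 14 of the 46 WT RPB1 regions was 10 or less, and the part of depth was not tested.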
